A study of Homo sapiens with 19 samples.

Results

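The insulin-like growth factor (IGF) system was followed in human liver organoids through 10 genes: the ligands IGF1 and IGF2, the receptor IGF1R and the 7 secreted binding proteins IGFBP1 to IGFBP7. The genes were chosen by name and matched by Ensembl identifier, and all 10 were found in each of the 19 single-cell libraries, among 32732 genes listed in every orbital shaker matrix. The organoids were grown from the wild-type human pluripotent stem cell line W01 of WiCell, so all libraries share 1 genetic background. Organoids in ultra-low attachment plates (ULA) were sampled on day 21 (n = 3 libraries) and day 34 (n = 2). The 7 groups kept on an orbital shaker (OS), each with 2 libraries, were taken at day 25: untreated organoids, transforming growth factor β1 (TGFB1, 10 ng/ml) and its control, PA (500 µM) and its control, and OA (500 µM) and its control. PA and OA are abbreviations that the labels leave unexplained, and what the control organoids received is not stated either. Treatment with TGFB1 or PA lasted 5 days after 20 days of culture, whereas OA is named only in sample titles and characteristics. Because nothing in the labels says that replicates came from separate organoid batches, p-values measure the spread between libraries, which may be technical.

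IGF1 and IGF2 are secreted growth factors that signal through the tyrosine kinase receptor encoded by IGF1R. IGFBP1 to IGFBP6 bind the ligands tightly in body fluids and set how much ligand reaches the receptor, while IGFBP7 binds them weakly. In liver, hepatocytes of the adult organ release IGF1 into the blood, and IGFBP1 is an insulin-regulated hepatocyte product.

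Levels are given as CPM, which scales unique molecular identifiers (UMIs, each a tag of 1 captured RNA molecule at its 3′ end, so levels are not divided by gene length) to the same total in every library. UMIs were summed over cells that showed 500 genes or more and no more than 20% mitochondrial UMIs. Between 3089 and 12427 cells per library remained, holding 6880807 to 91184130 UMIs. Cells with at least 1 EPCAM UMI and none of COL1A2 or COL3A1 are called EPCAM-positive, and cells with the reverse COL-positive. The gate kept some RNA of the other class. In the 13 OS libraries with at least 50 cells in each class, the mesenchymal markers COL1A1, COL6A3, DCN, LUM, PDGFRA and PDGFRB were measured in EPCAM-positive cells at a median of 0.290% to 1.88% of their COL-positive level, and the epithelial markers CDH1, KRT8, KRT18, KRT19, CLDN4 and CLDN7 in COL-positive cells at a median of 5.81% to 25.9% of their EPCAM-positive level. In all cells the endothelial markers PECAM1, CDH5, KDR and TEK summed to at most 7.63 CPM. The immune markers PTPRC, CD68, TYROBP and CD14 summed to at most 21.2 CPM outside the OA group and to 70.5 and 82.1 CPM within it, where 3 of the 4 genes, PTPRC among them, were at 0. Cells with UMIs of both gates, which may be doublets, made up 1.93% to 59.7% of a library and entered neither class. ULA day 34 replicate 1 stood apart, with 23 EPCAM-positive cells among 4326.

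Of the 10 genes, 7 had RefSeq promoter entries (GRCh38.p14), and in 6 of these an entry began at the start of the canonical GENCODE transcript. The 250 bases before the start are shown for 4 binding protein genes because they stand for the contrasts described in what follows. IGFBP2 and IGFBP5 are neighbours on chromosome 2, with 7668 bases between them, and the difference between the cell classes in the response to TGFB1 had opposite signs for them. IGFBP4 and IGFBP6 were called higher after TGFB1 in the sums over all cells, as IGFBP2 was. Capitals mark TATAAA (the TATA box core) and GGGCGG (the GC box bound by Sp factors), read on both strands.
IGFBP2, chr2:216633170-216633419, plus strand: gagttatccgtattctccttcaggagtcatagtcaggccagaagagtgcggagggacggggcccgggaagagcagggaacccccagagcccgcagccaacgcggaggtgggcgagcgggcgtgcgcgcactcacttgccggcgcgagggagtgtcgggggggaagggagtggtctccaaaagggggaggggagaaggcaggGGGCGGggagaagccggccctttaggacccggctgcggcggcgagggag
IGFBP5, chr2:216695550-216695799, minus strand: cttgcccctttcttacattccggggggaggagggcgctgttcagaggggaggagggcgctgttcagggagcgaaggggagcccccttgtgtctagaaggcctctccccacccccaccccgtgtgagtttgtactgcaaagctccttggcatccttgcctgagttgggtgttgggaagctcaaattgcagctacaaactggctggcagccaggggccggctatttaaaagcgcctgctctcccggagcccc
IGFBP4, chr17:40443200-40443449, plus strand: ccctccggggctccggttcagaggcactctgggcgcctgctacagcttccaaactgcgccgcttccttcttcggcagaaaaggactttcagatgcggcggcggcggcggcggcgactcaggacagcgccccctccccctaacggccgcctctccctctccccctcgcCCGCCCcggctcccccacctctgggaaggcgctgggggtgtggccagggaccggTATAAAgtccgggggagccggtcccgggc
IGFBP6, chr12:53097417-53097666, plus strand: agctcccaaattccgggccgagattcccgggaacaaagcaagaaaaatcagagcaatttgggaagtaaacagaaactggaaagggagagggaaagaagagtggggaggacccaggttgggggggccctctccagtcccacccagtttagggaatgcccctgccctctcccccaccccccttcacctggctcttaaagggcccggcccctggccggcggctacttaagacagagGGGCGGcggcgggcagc
GGGCGG was found in IGFBP2, IGFBP4 and IGFBP6 and not in IGFBP5, and 42.6% of 35116 RefSeq promoter windows of the same length hold it. It was also found in the windows of IGF1R and IGFBP3, which are not shown and were not called after TGFB1 in all cells. In EPCAM-positive cells IGFBP3 was called higher after TGFB1. Whether the presence of GGGCGG goes with the calls was not tested. TATAAA was found in IGFBP4 alone, 29 bases before the start, and 10.7% of windows hold it. CAGAC, a form of the SMAD binding element through which TGF-β signals act, was found in none of the 6 windows on either strand (GTCTG on the other), against 38.0% of all windows. AGAC (GTCT on the other strand), the shorter core of that element, was not counted. It does occur in the windows of IGFBP2, IGFBP5 and IGFBP6, so the absence of CAGAC does not mean that these windows lack the core. None of these motifs overlapped another in the windows shown. The second neighbouring pair, IGFBP1 and IGFBP3 on chromosome 7, lies 18584 bases apart.

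IGFBP2, the main binding protein of fetal life, held most of the binding protein transcripts in most libraries. Its share of the UMIs of IGFBP1 to IGFBP7 ran from 39.2% in ULA day 34 replicate 2 to 86.7% in OA replicate 1. IGFBP5, a matrix-associated binding protein, held 2.15% to 42.8%, and the shares for IGFBP7 ran from 0.908% in OA replicate 1 to 27.1% in TGFB1 replicate 1. IGFBP1 held at most 0.303%. The summed level of the 7 binding proteins was 7850 and 7038 CPM with TGFB1, against 1625 and 2702 CPM in its control. It was lowest with OA, at 556 and 643 CPM, against 1884 and 2785 CPM in its control.

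**Figure D1:**
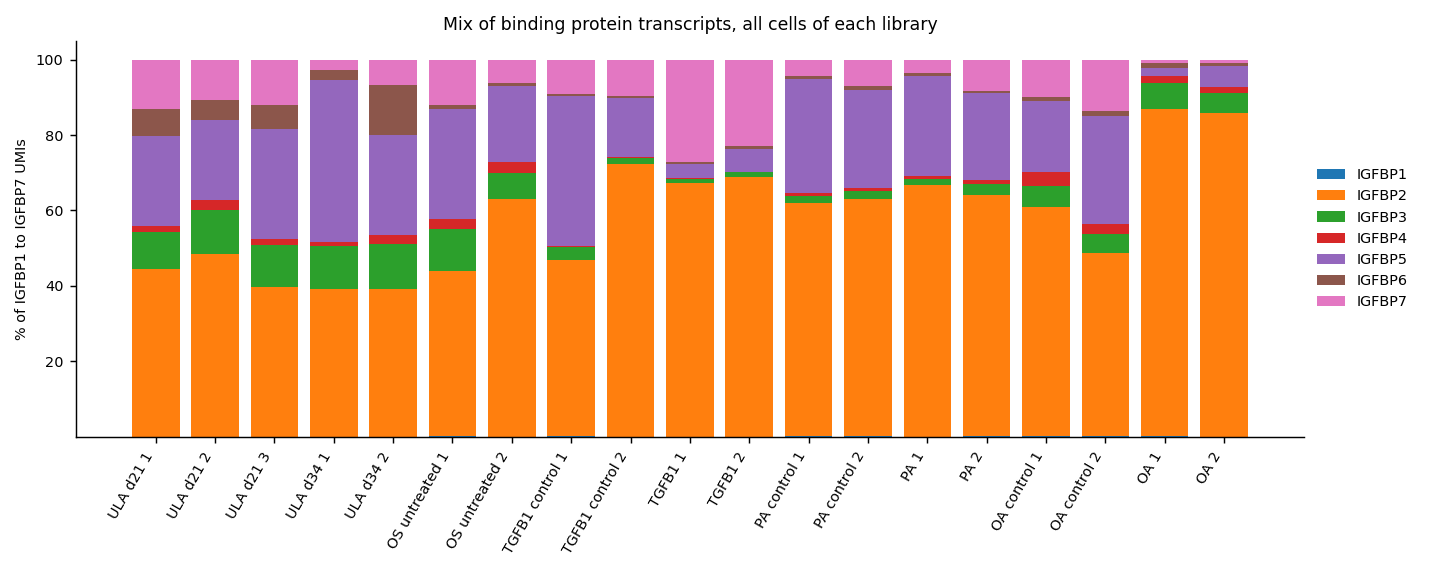
Percent of the UMIs of IGFBP1 to IGFBP7 that each gene held in each of the 19 libraries, all cells, with 1 stacked bar per library. IGFBP2 fills 86.7% and 85.9% of the OA bars, and IGFBP7 fills 27.1% and 23.0% of the TGFB1 bars.

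Ordered by group mean, the ligand IGF2 was highest in the TGFB1 control (307 and 264 CPM in replicates 1 and 2), followed by PA control (172 and 210 CPM), PA (228 and 121 CPM), ULA day 34 (187 and 88.1 CPM), untreated (133 and 71.2 CPM), OA control (38.6 and 62.6 CPM), OA (19.3 and 78.0 CPM), ULA day 21 (49.1, 43.5 and 33.6 CPM) and TGFB1 (22.8 and 16.8 CPM). Neighbouring groups in this order overlapped, except at 3 steps: the TGFB1 control lay above the PA control, untreated above OA control, and ULA day 21 above TGFB1. IGF2 levels between experiments carry a further limit. All 19 matrices list a further gene identifier that carries the symbol IGF2 in 13 of them, at 0 UMIs throughout. The same 13 list the overlapping read-through gene INS-IGF2, also at 0, and the 6 matrices of the OA experiment and the untreated libraries do not. Whether that changed how reads of the shared sequence were counted was not tested. IGF2 (chr11:2129112-2158391, minus strand, GENCODE v44) also contains IGF2-AS on the other strand (0.230 to 12.7 CPM), and whether counting used strand is not given in the sources used here.

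IGF1 was the scarcer ligand in OS organoids and in ULA organoids. It ranged from 0.555 CPM in OA replicate 2 to 16.8 CPM in untreated replicate 1 in OS organoids, and in ULA organoids from 19.5 to 77.3 CPM. ULA matrices list 58721 genes and OS matrices 33538 or 36601, and the culture systems were not compared by a test. IGF1R ran from 18.6 to 65.7 CPM across the 14 OS libraries. IGFBP1 was barely detected anywhere, with at most 4.39 CPM and 2 to 199 UMIs per library.

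**Figure D2:**
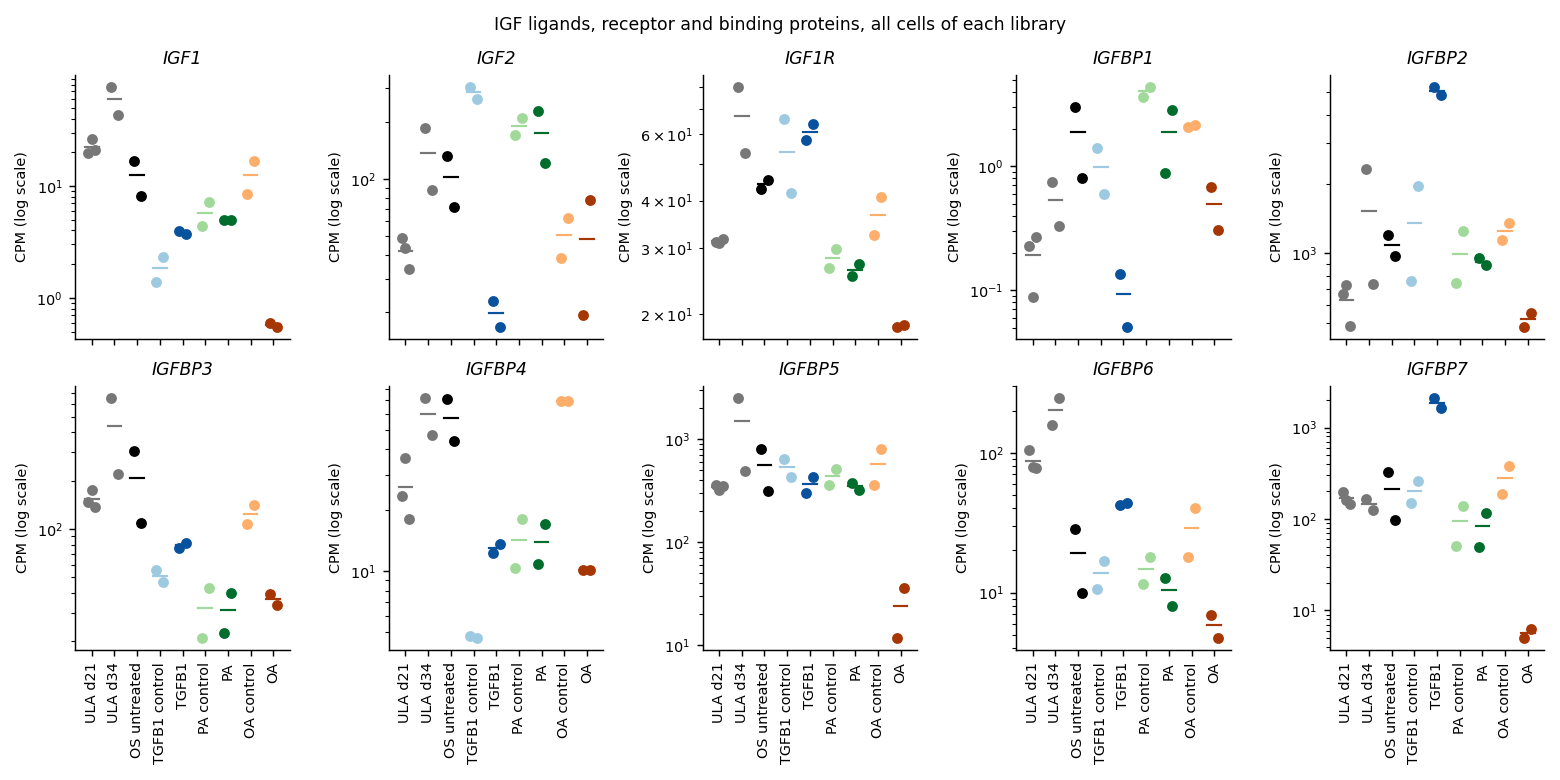
Level of each of the 10 genes in all cells of each library (CPM, log scale), with 1 point per library and a bar at the group mean. IGF2 was 307 and 264 CPM in the TGFB1 control and 22.8 and 16.8 CPM with TGFB1, and IGFBP7 was 5.05 and 6.20 CPM with OA.

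The binding proteins divided between the cell classes. In the 13 OS libraries with both classes, IGF1, IGFBP3, IGFBP4, IGFBP5 and IGFBP6 were higher in COL-positive cells in 13 of 13 libraries, and IGF1R and IGFBP7 in 11 of 13. IGFBP1 was higher in EPCAM-positive cells in 13 of 13 and IGFBP2 in 12 of 13. With edgeR's quasi-likelihood test, with library as a block and Benjamini-Hochberg adjustment over all genes, 9 of the 10 were called at an adjusted p under 0.05, 7 higher in COL-positive cells and 2 lower. The class difference was averaged over groups with equal weight, also for OA, where it came from replicate 1 alone (60 COL-positive cells). The background was 50.3% of the 18942 genes tested, 15.7% higher and 34.6% lower. The median log2 difference of the 10 genes was 2.16, and that of all genes was -0.30.

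IGF1 was nearly confined to COL-positive cells in OS organoids, with a median of 38.8 CPM (range 18.8 to 63.0) there and 0.416 CPM (0 to 2.03) in EPCAM-positive cells. The log2 difference was 6.47 ± 0.39 (SE; edgeR adjusted p = 1.9e-13). The EPCAM-positive level was a median of 1.04% of the COL-positive level, within the range of the mesenchymal markers given above, so it is read as background, with OA control replicate 2 the highest of the 13 libraries at 4.43%. IGFBP3, the main carrier of IGF in adult blood, had medians of 413 CPM (164 to 764) and 14.1 CPM (8.37 to 25.3), a log2 difference of 4.50 ± 0.08 (edgeR adjusted p = 3e-23). IGFBP4 had medians of 114 and 5.47 CPM and differed by 3.49 ± 0.15. The 2 classes did not overlap for any of these genes.

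IGFBP5 had a median of 1311 CPM (448 to 2177) in COL-positive and 219 CPM (7.02 to 624) in EPCAM-positive cells, and its log2 difference was 2.81 ± 0.11. IGFBP7 differed by 2.42 ± 0.10, with medians of 614 and 94.7 CPM, and the 2 TGFB1 libraries were those in which EPCAM-positive cells had the higher level. IGFBP6 had medians of 45.3 and 10.7 CPM and differed by 1.90 ± 0.14. IGF1R differed little, by 0.33 ± 0.08. For IGFBP5, IGFBP6 and IGFBP7 the EPCAM-positive level was a median of 11.7%, 25.7% and 20.5% of the COL-positive level, above each mesenchymal marker's median. IGFBP3 and IGFBP4, at medians of 3.99% and 5.49%, were also above each of those markers' medians.

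IGFBP2 was abundant in both classes, with a median of 1238 CPM (489 to 5898) in EPCAM-positive and 978 CPM (265 to 2501) in COL-positive cells, and the log2 difference, COL-positive minus EPCAM-positive, was -0.83 ± 0.05 (edgeR adjusted p = 1.4e-12). The values overlapped between classes. IGFBP1 was -4.03 ± 0.64, with 0 to 7 UMIs per library in COL-positive cells and 2 to 164 in EPCAM-positive cells. IGF2 was higher in COL-positive cells in 7 of 13 libraries and was not called (edgeR adjusted p = 0.12), with medians of 97.6 CPM in COL-positive and 125 CPM in EPCAM-positive cells. IGF2 was called with total-count or median-of-ratios scaling, with no filter on low counts, with the dominant gate (at least 2 UMIs of a class's gate genes and 3 times the other's) and without untreated replicate 1 or OA control replicate 2.

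**Figure D3:**
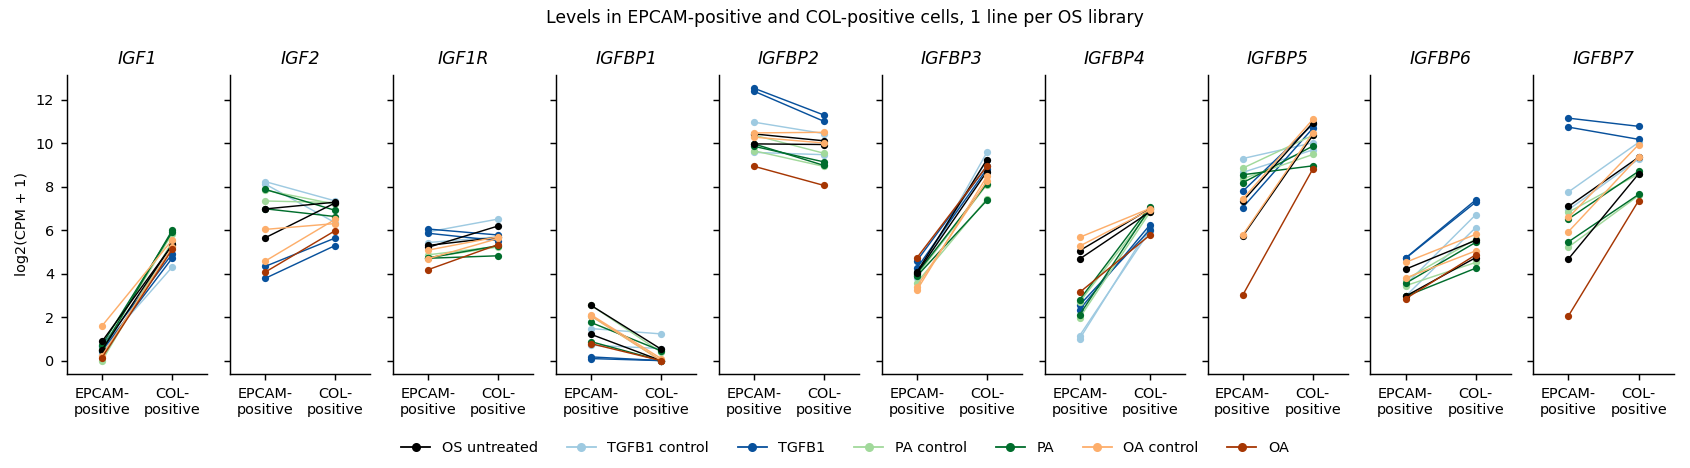
Level of each gene in EPCAM-positive and COL-positive cells on the log2(CPM + 1) scale, with 1 line per OS library (13 libraries with at least 50 cells in each class) and colours for the groups. Lines rise to the right for IGF1 and IGFBP3 to IGFBP6 in every library, and fall for IGFBP1.

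TGFB1 changed the ligand IGF2 and most binding proteins. In all cells 7 of the 10 genes were called (background 22.2% of 19366 genes, 10.9% higher and 11.3% lower), 5 higher and 2 lower, with a median log2 fold change of 0.99 for the 10 and -0.05 for all genes. IGFBP7 was 148 and 258 CPM in control replicates 1 and 2 and 2129 and 1617 CPM with TGFB1. The groups did not overlap, and the log2 fold change was 3.37 ± 0.62 (edgeR adjusted p = 0.0019). IGF2 went from 307 and 264 CPM to 22.8 and 16.8 CPM, also without overlap, a log2 fold change of -3.65 ± 0.54 (edgeR adjusted p = 0.00041). IGF2-AS went from 5.06 and 4.63 CPM to 0.318 and 0.230 CPM.

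IGFBP2 was 760 and 1951 CPM in the control and 5289 and 4851 CPM with TGFB1, a log2 fold change of 2.06 ± 0.40. Every TGFB1 library lay above both controls, though the 2 controls differed from each other by more than the treated libraries did. IGFBP4 was 4.74 and 4.69 CPM against 12.3 and 13.6 CPM (1.65 ± 0.28), and IGFBP6 was 10.6 and 16.8 CPM against 42.4 and 43.6 CPM (1.81 ± 0.45). IGF1 was 1.39 and 2.33 CPM against 3.997 and 3.70 CPM (1.15 ± 0.38, edgeR adjusted p = 0.047). IGFBP1 fell from 22 and 31 UMIs to 6 and 2 UMIs (-3.00 ± 0.86). IGF1R (65.7 and 42.0 CPM against 57.8 and 63.8 CPM), IGFBP3 (55.3 and 46.95 CPM against 76.6 and 81.8 CPM) and IGFBP5 (645 and 424 CPM against 300.2 and 430 CPM) were not called.

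Markers moved with these genes. COL-positive cells were 4.57% and 3.92% of control and 8.55% and 9.56% of TGFB1 cells, and the summed cycling markers MKI67, TOP2A, CDK1 and RRM2 were 166 to 289 CPM in the control and 9.74 to 10.1 CPM with TGFB1. Cells with UMIs of both gates, which enter neither class, were 1.93% and 5.24% of control and 15.8% and 8.65% of TGFB1 cells. A cell whose COL1A2 or COL3A1 RNA changed with treatment could change class, so the classes may hold different cells in the 2 groups. The part of this in the comparisons within and between classes was not tested. Control replicate 1 was shallow, with a median of 1310 UMIs per cell against 5635 in control replicate 2 and 7092.5 and 5201.5 with TGFB1. Of its 9615 cells, 4300 held UMIs of neither gate, and the part of depth in the class shares was not tested. Summed epithelial markers were 3292 to 5631 CPM against 6450 to 8299 CPM, and summed hepatocyte markers 2586 to 3913 CPM against 4512 to 5357 CPM. Their part in the changes was not tested in all cells, where more cells of a class and more RNA per cell cannot be told apart. The calls for IGF2, IGFBP2, IGFBP4 and IGFBP7 held when any of the 4 libraries was left out. Without control replicate 1 or TGFB1 replicate 1, 4 members were called. IGF1 lost its call without control replicate 1 or either TGFB1 library, as IGFBP1 did, and IGFBP6 without control replicate 1 or TGFB1 replicate 1.

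Within EPCAM-positive cells 7 of the 10 genes were called after TGFB1 (background 25.0% of 17526 genes, 12.3% higher and 12.7% lower), 5 higher and 2 lower. IGFBP7 was 122 and 215 CPM in the control and 2266 and 1703 CPM with TGFB1 (log2 fold change 3.73 ± 0.67, edgeR adjusted p = 0.0012). With each cell thinned to 1000 UMIs, 10.3% to 17.3% of control cells and 74.2% to 81.9% of TGFB1 cells held an IGFBP7 UMI, and unthinned the shares were 17.2% to 47.6% against 96.1% to 97.7%. Shallower cells, 22 to 976 per library, were left out of the thinned shares. IGFBP2 rose from 761 and 1997 CPM to 5898 and 5366 CPM (2.18 ± 0.40). IGFBP6 rose from 6.78 and 10.3 CPM to 25.3 and 25.0 CPM (1.70 ± 0.37). IGFBP4 and IGFBP3 were called higher from low control levels. IGFBP4 was 1.22 and 1.00 CPM in the control, 1.98% and 1.42% of the COL-positive level, and 4.90 and 4.10 CPM with TGFB1, 7.72% and 5.49% (log2 fold change 2.23 ± 0.35). IGFBP3 was 13.1 and 13.7 CPM in the control, 1.72% and 2.30% of the COL-positive level, and 22.9 and 17.9 CPM with TGFB1, 4.63% and 3.99% (0.79 ± 0.19, edgeR adjusted p = 0.0089), and lost its call without control replicate 1 or TGFB1 replicate 1. The 6 mesenchymal markers were at 0.107% to 1.01% of their COL-positive level in the same control cells, below IGFBP4 and IGFBP3. With TGFB1, 5 of them were at 0% to 2.43%, again below both genes, and COL1A1 was at 8.82% and 9.35%, above both.

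IGF2 fell in the same cells from 300 and 278 CPM to 19.1 and 12.7 CPM (-3.98 ± 0.66, edgeR adjusted p = 0.00067). After thinning, 22.7% to 24.0% of control cells and 1.29% to 2.08% of TGFB1 cells held an IGF2 UMI, and unthinned 36.1% to 65.9% against 5.90% to 10.8%. IGFBP1 fell from 16 and 29 UMIs to 4 and 2 UMIs (-3.12 ± 0.89), a call lost without control replicate 1 or either TGFB1 library. IGFBP5 was 624 and 401 CPM in the control and 130 and 219 CPM with TGFB1, without overlap, and was not called (edgeR adjusted p = 0.12). Summed mesenchymal markers in EPCAM-positive cells were 21.5 to 42.9 CPM in the control and 355 to 413 CPM with TGFB1, and nearly all of that was COL1A1, at 347 and 405 CPM. DCN, another of the markers, was near 0 in each library, so no direction is read from it. It was 0.111 and 0.393 CPM in the control and 0.0948 and 0 CPM with TGFB1. LUM was higher with TGFB1, at 2.22 and 1.26 CPM in the control and 2.497 and 3.997 CPM with TGFB1. The groups overlapped for COL6A3, PDGFRA and PDGFRB. Other marker lists also moved without overlap in these cells. Summed epithelial markers were 3373 to 5933 CPM in the control and 7377 to 9556 CPM with TGFB1, summed hepatocyte markers 2795 to 4173 CPM against 5229 to 6160 CPM, and summed cycling markers 169 to 313 CPM against 3.49 to 6.67 CPM. The part of COL1A1-bearing cells, of cycling and of these other marker lists in the changes of the members was not tested.

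In COL-positive cells none of the 9 genes tested was called by edgeR (background 0.0212% of 14176 genes, 0.0141% higher and 0.00705% lower), 5 had an unadjusted p under 0.05, and DESeq2 called 2. Without control replicate 2 edgeR called 4 members among 1125 of 14138 genes, and with the dominant gate 1 among 39 of 14396. DESeq2's 2 were among 109 of 14176. IGFBP7 was 614 and 1049 CPM in the control and 1746 and 1153 CPM with TGFB1. IGFBP2 was 707 and 1384 CPM against 2501 and 2047 CPM, and IGFBP5 was 1032 and 824 CPM against 1644 and 1866 CPM. IGF2 was 161 and 80.0 CPM against 48.8 and 38.2 CPM. The groups did not overlap for these genes, but the differences did not pass the test. These sums came from 333 to 660 cells per library.

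The response to TGFB1 differed between the classes for 6 of the 10 genes by a test of the difference itself (background 6.30% of 18942 genes, 2.59% higher and 3.71% lower). IGF2 fell less in COL-positive cells, with a difference of log2 fold changes of 2.96 ± 0.40 (COL-positive minus EPCAM-positive, edgeR adjusted p = 1.6e-05). In COL-positive cells of control replicate 1, CDH1, KRT8 and CLDN7 were at 29.2%, 51.7% and 37.5% of their EPCAM-positive level. These were their highest values in the 13 OS libraries, while KRT18, KRT19 and CLDN4 were highest in OA replicate 1. The part of this epithelial RNA in the differences between classes was not tested. IGFBP5 had a difference of 2.62 ± 0.33 (edgeR adjusted p = 6.7e-06): its level was lower with TGFB1 in EPCAM-positive and higher in COL-positive cells. IGFBP7 had -2.65 ± 0.28, IGFBP4 had -1.98 ± 0.33, IGFBP3 had -0.97 ± 0.23 and IGFBP2 had -0.87 ± 0.18, each with the higher log2 fold change in EPCAM-positive cells. IGFBP4 lost this call without control replicate 2, IGFBP3 without TGFB1 replicate 1, and IGFBP2 without TGFB1 replicate 2 or with the dominant gate.

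**Figure D4:**
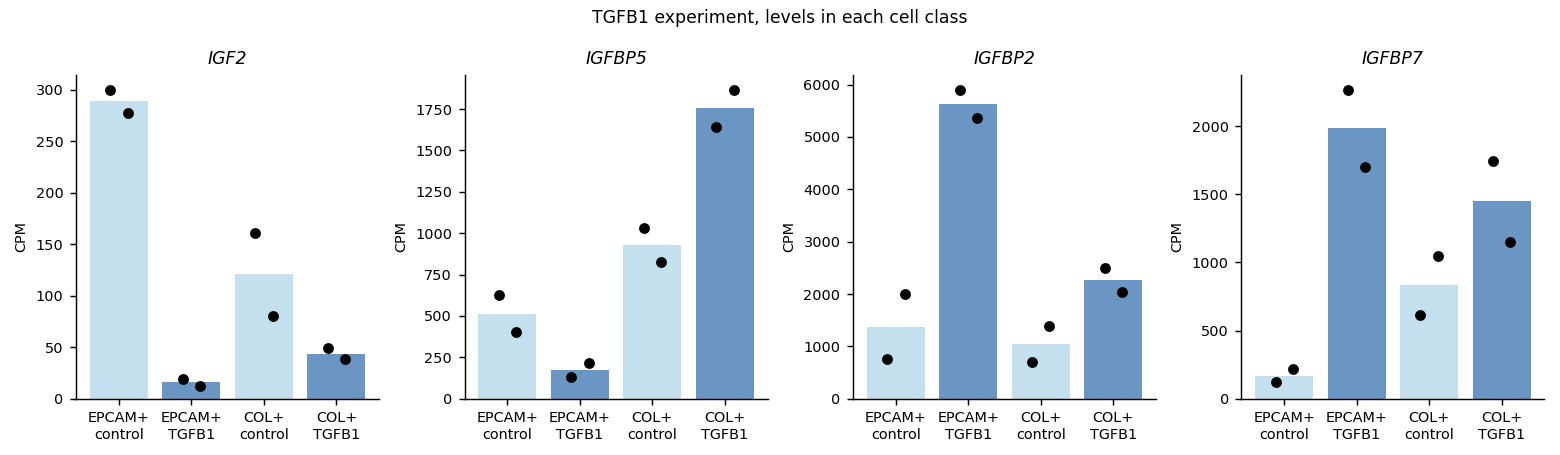
Levels (CPM) of IGF2, IGFBP5, IGFBP2 and IGFBP7 in EPCAM-positive (EPCAM+) and COL-positive (COL+) cells of the TGFB1 experiment, with bars at the mean of 2 libraries and a point per library. IGFBP5 was 130 and 219 CPM in EPCAM-positive cells with TGFB1, under both controls, and 1644 and 1866 CPM in COL-positive cells, above both.

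Of the other 24 genes of the pathway, 23 were tested in OS libraries. In EPCAM-positive cells 6 of them were called higher and 2 lower with TGFB1 (background 25.0% of 17526 genes, 12.3% higher and 12.7% lower). PAPPA, the pappalysin protease that cleaves IGFBP4, had a group mean of 0.374 CPM in the control and 6.87 CPM with TGFB1 (log2 fold change 4.26 ± 0.47, edgeR adjusted p = 2.1e-05). The control level was 0.292% and 0.388% of that in COL-positive cells, within the range of the mesenchymal markers in those libraries, and is read as background, so the fold is not read as a size, and with TGFB1 the level was 8.36% and 3.69%. PAPPA2, which cleaves IGFBP3 and IGFBP5, rose by 2.94 ± 0.64 and STC2, a stanniocalcin that blocks pappalysins, by 1.73 ± 0.46. PAPPA2 had 24 UMIs over all cells of the 2 control libraries, 9 of them in COL-positive cells, so its fold is not read as a size either. FOXO1, a transcription factor held in check by insulin and IGF signals, rose by 1.39 ± 0.20. IGFALS, the acid-labile subunit of the circulating IGF complex, was -3.21 ± 0.83 from a mean of 0.618 CPM in the control, and STC1 was -1.30 ± 0.42. The 23 genes had a median log2 fold change of -0.03, and all genes -0.06. The response of PAPPA differed between the classes (-3.83 ± 0.42, edgeR adjusted p = 8.2e-07), with group means of 110 CPM in control and 121 CPM in TGFB1 COL-positive cells. This difference rests on the EPCAM-positive control level that is read as background, so it is not read as a size either.

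With PA no member was called in all cells, in EPCAM-positive cells or in COL-positive cells by edgeR, and none had an unadjusted p under 0.05. DESeq2 called none as well. The background was 0.0465% of 19366 genes in all cells and 0.103% of 17526 in EPCAM-positive cells, all higher, and 0% in COL-positive cells. The difference between the classes was called for no member, with a background of 0.0106%, all higher. IGFBP2 was 741 and 1249 CPM in the PA control and 950 and 890 CPM with PA. IGF2 was 172 and 210 CPM against 228 and 121 CPM, and IGFBP7 was 51.2 and 140 CPM against 49.7 and 116 CPM. IGFBP1 was 3.63 and 4.39 CPM against 0.882 and 2.87 CPM. The groups overlapped for IGFBP2, IGF2 and IGFBP7 and not for IGFBP1. Replicate 1 of the PA control had the fewest UMIs in the cells kept of all libraries, 6880807 against 45303089 in replicate 2. Its median per cell was 1747, and only TGFB1 control replicate 1 had a lower one (1310). None of the 23 other pathway genes was called.

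OA went with lower levels of most members. In all cells 8 of the 10 were called lower and none higher (background 43.3% of 19366 genes, 21.7% higher and 21.6% lower), and the median log2 fold change was -1.84 for the 10 and -0.08 for all genes. IGFBP7 was 187 and 377 CPM in the OA control and 5.05 and 6.20 CPM with OA, a log2 fold change of -5.28 ± 0.68 (edgeR adjusted p = 5.9e-05). IGFBP5 was 355 and 801 CPM against 11.9 and 35.8 CPM (-4.24 ± 0.55), and IGF1 was 8.45 and 16.7 CPM against 0.592 and 0.555 CPM (-4.09 ± 0.42). The groups did not overlap for these 3 genes. IGFBP4 was 69.8 and 69.7 CPM against 10.1 and 10.1 CPM (-2.45 ± 0.27).

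The other falls were smaller. IGFBP6 was 17.9 and 40.0 CPM against 6.90 and 4.77 CPM (-1.94 ± 0.45), and IGFBP3 was 107 and 142 CPM against 39.4 and 33.7 CPM (-1.42 ± 0.39). IGFBP1 fell from 115 and 113 UMIs to 37 and 16 UMIs (-1.74 ± 0.63). IGF1R was 32.4 and 41.0 CPM against 18.6 and 18.7 CPM (-0.63 ± 0.18). IGF2, at 38.6 and 62.6 CPM against 19.3 and 78.0 CPM, and IGFBP2, at 1146 and 1354 CPM against 482 and 552 CPM, were not called (edgeR adjusted p = 0.67 and 0.066). Without OA control replicate 2 the count was 4 and without OA replicate 2 it was 5. IGFBP1 lost its call without either control library or OA replicate 2, IGF1R without control replicate 2 or either OA library, IGFBP3 without control replicate 2 or OA replicate 2, and IGFBP6 without control replicate 2.

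The cell classes moved with OA. COL-positive cells were 35.3% and 37.5% of the control and 1.94% and 1.18% of the OA libraries (60 and 38 cells), and EPCAM-positive cells 32.4% and 23.1% against 88.4% and 88.4%. Cells with UMIs of both gates were 26.7% and 32.0% of the control and 5.60% and 4.47% of the OA libraries. Summed mesenchymal markers were 1303 to 2065 CPM in the control and 52.6 to 69.9 CPM with OA. Summed hepatocyte markers over all cells were 8546 to 11365 CPM in the control and 15194 to 17363 CPM with OA, and summed cycling markers 201 to 231 CPM against 72.6 to 80.7 CPM. The part of these in the changes of the members was not tested. In the sums over all cells, fewer COL-positive cells and less RNA per cell cannot be told apart.

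Within EPCAM-positive cells 9 of the 10 genes were called, 8 lower and 1 higher (background 36.0% of 17526 genes, 19.1% higher and 16.8% lower). IGFBP7 was 60.02 and 94.7 CPM in the control and 3.17 and 3.402 CPM with OA (-4.30 ± 0.70, edgeR adjusted p = 0.00041). IGFBP4 was 49.9 and 37.5 CPM against 7.82 and 7.44 CPM (-2.30 ± 0.29). IGFBP3 was the gene that rose, from 8.37 and 9.49 CPM to 25.3 and 26.4 CPM (1.77 ± 0.20, edgeR adjusted p = 3.3e-05), the opposite of its direction in all cells. These 3 calls held when any of the 4 libraries was left out, and the groups did not overlap.

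IGFBP5 was 53.6 and 171 CPM against 7.02 and 31.9 CPM (-2.26 ± 0.63), IGFBP2 was 1238 and 1416 CPM against 489 and 550 CPM (-1.12 ± 0.39), and IGFBP6 was 12.9 and 21.9 CPM against 6.18 and 4.24 CPM (-1.47 ± 0.37). IGFBP1 fell from 73 and 44 UMIs to 36 and 15 UMIs (-2.41 ± 0.61), and IGF1R was 24.7 and 32.8 CPM against 17.1 and 17.8 CPM (-0.47 ± 0.17). IGF1 was called as well (-3.14 ± 0.92), on 4 and 27 UMIs in the control and 5 and 4 with OA, and rests on OA control replicate 2, where the EPCAM-positive level of 2.03 CPM was 4.43% of the COL-positive level, above the median of every mesenchymal marker and above the other 12 libraries. Without control replicate 2 or OA replicate 2, 4 members were called, and without OA replicate 1, 5. IGFBP2 and IGF1R lost their calls whichever of the 4 libraries was left out, IGFBP5 without control replicate 2 or OA replicate 1, IGF1 without control replicate 2 or either OA library, IGFBP1 without OA replicate 2, and IGFBP6 without control replicate 2 or OA replicate 2. Summed mesenchymal markers in these cells were 45.4 to 54.0 CPM in the control and 30.0 to 53.5 CPM with OA, and COL1A1 was 30.1 and 41.0 CPM against 5.085 and 5.53 CPM. The other 5 markers together were therefore higher with OA than in the control, and LUM reached 21.1% of its COL-positive level in OA replicate 1. Summed cycling markers were 169 to 174 CPM in the control and 67.4 to 80.0 CPM with OA. Summed immune markers were 14.6 to 20.0 CPM against 73.1 to 86.4 CPM, and summed endothelial markers 0.376 to 0.954 CPM against 3.85 to 4.83 CPM. Summed epithelial and hepatocyte markers overlapped between the groups. The part of these marker lists in the calls was not tested.

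In COL-positive cells only OA replicate 1, with 60 cells, entered the fit, so its spread is assumed to be like that of the other groups. Of 9 genes tested, IGFBP2 (1027 and 1444 CPM in the control, 265 CPM with OA), IGFBP5 (1420 and 2177 CPM, 448 CPM) and IGFBP7 (665 and 977 CPM, 163 CPM) were called lower (background 3.75% of 14176 genes, 2.29% higher and 1.45% lower), and without OA control replicate 2 none was. The class went against its name there: KRT18 was 2027 CPM in that OA library and 460 and 415 CPM in the control, and COL1A1 was 476 CPM against 3075 and 3622 CPM. The difference of effects between the classes was called for IGFBP2 (-1.40 ± 0.25), IGFBP3 (-1.57 ± 0.29) and IGFBP7 (1.63 ± 0.43), with a background of 8.35% (1.78% higher and 6.57% lower) and a median of -0.82 over all genes. IGFBP2 and IGFBP7 lost this call with the dominant gate, and IGFBP3 with total-count scaling.

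**Figure D5:**
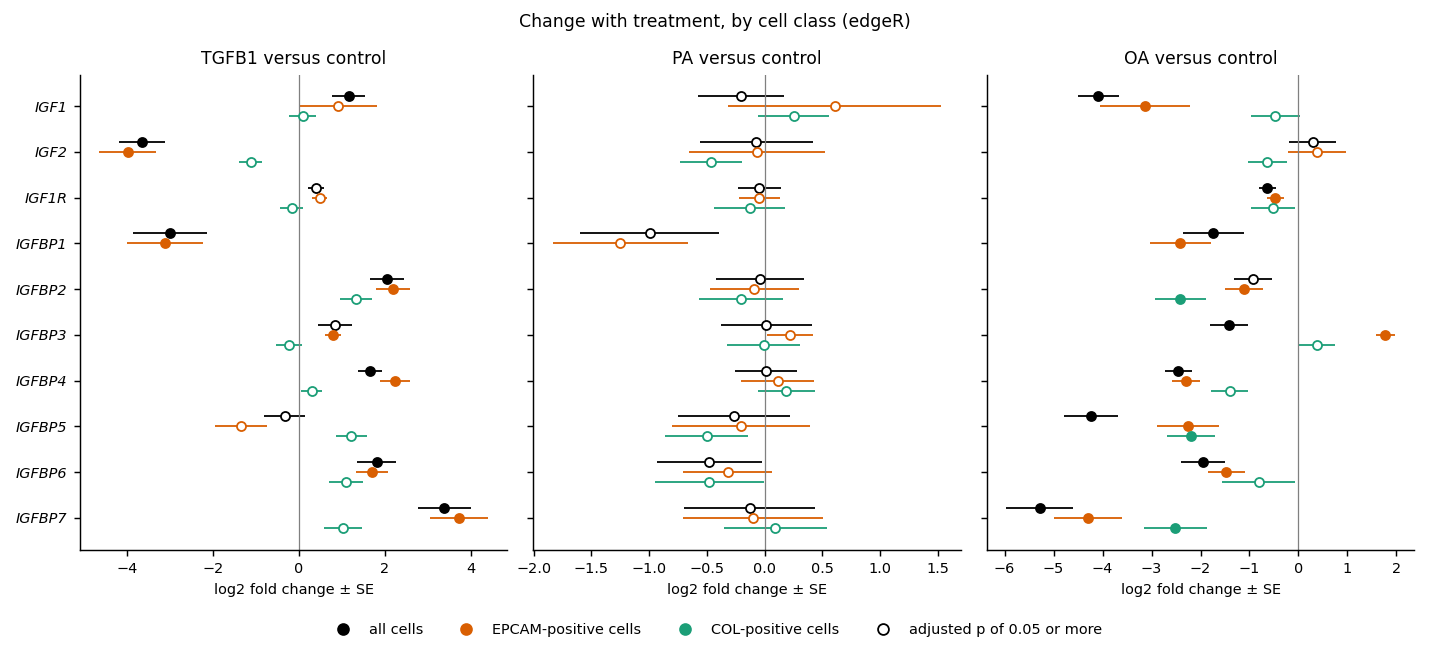
Log2 fold change with its SE for each gene after TGFB1, PA and OA, in all cells (black), EPCAM-positive cells (orange) and COL-positive cells (green), with filled points where the edgeR adjusted p was under 0.05. No point is filled for PA, IGFBP3 lies on opposite sides of 0 in all cells and EPCAM-positive cells after OA, and horizontal scales differ between panels.

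Among the 23 other pathway genes tested in EPCAM-positive cells, 8 were called higher and 4 lower with OA (background 36.0% of 17526 genes, 19.1% higher and 16.8% lower). FOXO1 rose by 1.62 ± 0.20 (edgeR adjusted p = 5.7e-05), and IRS2, an adaptor protein of the insulin and IGF1 receptors, by 1.21 ± 0.24. IGF2R, the receptor that removes IGF2 from the cell surface, rose by 1.21 ± 0.19, INSR, the insulin receptor, by 1.19 ± 0.24 and GHR, the growth hormone receptor, by 1.17 ± 0.30. PAPPA was -1.77 ± 0.41 and PIK3R1, a regulatory subunit of PI3 kinase, was -0.98 ± 0.24. The median log2 fold change of the 23 genes was 0.37, and that of all genes was -0.06.

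The OA control was also compared with untreated organoids, so both comparisons share the 2 OA control libraries. No member was called by edgeR or DESeq2 (background 0.573% of 19366 genes, 0.0826% higher and 0.491% lower), and none had an unadjusted p under 0.05. IGFBP7 was 329 and 96.4 CPM in untreated organoids and 187 and 377 CPM in the OA control, and IGFBP2 was 1208 and 970 CPM against 1146 and 1354 CPM. The groups overlapped for both.

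In ULA organoids 4 members were called higher on day 34 than on day 21 (background 15.6% of 22261 genes, 8.43% higher and 7.19% lower). IGF2 was 49.1, 43.5 and 33.6 CPM on day 21 and 187 and 88.1 CPM on day 34 (1.58 ± 0.31, edgeR adjusted p = 0.018), and IGF1 was 19.5, 26.0 and 21.0 CPM against 77.3 and 43.3 CPM (1.31 ± 0.26). IGF1R was 31.1, 30.9 and 31.7 CPM against 80.2 and 53.5 CPM (0.97 ± 0.19), and IGFBP6 was 105, 79.1 and 77.7 CPM against 158 and 248 CPM (1.10 ± 0.24). These groups did not overlap. IGFBP5, at 358, 321 and 354 CPM on day 21, was 2522 CPM in day 34 replicate 1 and 495 CPM in replicate 2, and IGFBP2 was 665, 732 and 483 CPM against 2316 and 734 CPM. Neither was called. Cell classes moved as well: EPCAM-positive cells were 18.3%, 11.7% and 18.8% on day 21 and 0.532% and 6.01% on day 34, and the hepatocyte markers ALB, AFP, APOA1, APOB, TTR, SERPINA1 and FGB summed to 1949 to 2188 CPM on day 21 and 81.2 to 747 CPM on day 34. Summed cycling markers were 476 to 613 CPM on day 21 and 249 to 371 CPM on day 34. Their part in the calls was not tested.

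The ULA calls rested on few libraries. With the replicate number as a block, 0 members were called. Without day 21 replicate 1 or 3 the count was 0, without day 21 replicate 2 it was 2, and without day 34 replicate 2 it was 9. With cells of both gates left out it was 2. The fit without day 34 replicate 2 holds replicate 1 as its only day 34 library, which stood apart with 23 EPCAM-positive cells. Calls over all genes also moved widely across these alternatives, as given in the section on processing, so the counts are not read as a result about the members. The time points also differed in preparation, since the later one was washed once more and its trypsin step ran 10 minutes longer, and day and preparation cannot be told apart.

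In ULA COL-positive cells IGF1 rose from 43.4, 39.8 and 46.1 CPM to 127 and 109 CPM (1.32 ± 0.16, edgeR adjusted p = 0.0021), a call that held without any of the 5 libraries. IGFBP2 (423, 503 and 325 CPM against 1822 and 673 CPM) and IGFBP6 (33.7, 26.7 and 24.1 CPM against 39.6 and 133 CPM) were also called higher there (background 17.8% of 17356 genes, 10.5% higher and 7.26% lower). Summed cycling markers in these cells were 555 to 794 CPM at day 21 and 369 to 405 CPM at day 34. Summed epithelial markers were 710 to 922 CPM at day 21, 745 CPM in day 34 replicate 1 and 2717 CPM in day 34 replicate 2. In that library CDH1 was at 36.2% and KRT19 at 49.9% of its EPCAM-positive level, and IGFBP6 was 182 CPM in EPCAM-positive cells. The part of cycling in the 3 calls and of epithelial RNA in the IGFBP2 and IGFBP6 calls was not tested. Both lost their calls without any day 21 library, IGFBP2 also without day 34 replicate 1 and IGFBP6 without day 34 replicate 2. The count was 1 without any day 21 library or with the block, and 6 without day 34 replicate 2.

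For EPCAM-positive cells day 34 was represented by replicate 2 alone (747 cells), so the spread came from the day 21 libraries alone and day 34 is assumed to vary like them. On that assumption 6 members were called higher (background 17.6% of 17580 genes, 9.25% higher and 8.30% lower), led by IGFBP3, at 5.88, 5.97 and 8.31 CPM on day 21 and 104 CPM on day 34 (3.58 ± 0.22). IGFBP6 was 31.6, 28.8 and 31.4 CPM against 182 CPM (2.21 ± 0.17) and IGF2 was 43.6, 23.5 and 23.0 CPM against 170 CPM (2.15 ± 0.29). IGFBP7 was 11.6, 17.4 and 14.5 CPM against 66.8 CPM (1.85 ± 0.23), IGFBP5 was 196, 142 and 139 CPM against 372 CPM (0.87 ± 0.22) and IGF1R was 21.6, 20.1 and 20.7 CPM against 41.4 CPM (0.63 ± 0.20). The 6 mesenchymal markers in these cells summed to 15.9 to 24.4 CPM on day 21 and 78.0 CPM in that day 34 library. As a share of the COL-positive level, DCN (37.0%), PDGFRA (10.9%), COL1A1 (7.07%) and LUM (4.88%) were highest in that library, and COL6A3 (0.582%) and PDGFRB (1.48%) in day 21 replicate 2. The part of this RNA in the member calls was not tested. Over both day 34 libraries, replicate 1 with its 23 cells included, summed epithelial markers were 6239 to 7022 CPM against 5576 to 6039 CPM on day 21. Summed hepatocyte markers were 4131 to 5184 CPM against 5737 to 7440 CPM. The part of these 2 lists was not tested either. IGFBP5 and IGFBP7 lost their calls with the stricter cell filter, and IGF1R without day 21 replicate 1 or 3 and with DESeq2, no filter or either other gate. With the same single day 34 library of EPCAM-positive cells and its spread taken from the other sums in the fit, the change was called different between the classes for 7 members (background 20.3% of 20139 genes, 12.3% higher and 7.99% lower): the log2 fold change was higher in COL-positive cells for IGF1 (1.79 ± 0.32) and IGFBP2 (0.93 ± 0.14) and lower for IGF2, IGFBP1, IGFBP3, IGFBP5 and IGFBP7. The IGFBP1 call rests on 0 COL-positive UMIs in day 34 replicate 2, whereas replicate 1 had 42 (1.22 CPM, against 0.136 to 0.187 CPM on day 21), and it was lost with DESeq2, the stricter cell filter or the dominant gate.

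The class contrast in ULA organoids, over the 4 libraries with both classes, called all 10 members (background 52.1% of 20139 genes, 25.4% higher and 26.7% lower), 6 higher in COL-positive cells and 4 lower. The contrast averages the class difference over groups, not libraries. Day 34, with replicate 2 alone, therefore weighs as much as the 3 day 21 libraries together. IGFBP3 differed by 3.09 ± 0.10, IGF1 by 2.45 ± 0.15, IGFBP7 by 2.03 ± 0.11, IGFBP4 by 1.71 ± 0.10, IGFBP5 by 1.40 ± 0.09 and IGF1R by 0.25 ± 0.09. IGFBP2 was -0.52 ± 0.07 and IGFBP1 was -4.24 ± 1.00, the latter on 0 to 4 COL-positive UMIs in the libraries with both classes. IGF2 (-0.26 ± 0.09) was fitted lower in COL-positive cells although 3 of 4 libraries had the higher CPM there. IGF2 and IGFBP6 (-0.44 ± 0.09) reversed to 0.07 and 0.21 with the dominant gate, and IGF2 to 1.01 without day 34 replicate 2. Without that library IGFBP1 lost its call at -0.41, and IGFBP3 differed by 5.34. IGF1R lost its call without day 21 replicate 1 or 3, and IGF2 without day 21 replicate 1. Among the other pathway genes called in both culture systems, PAPPA differed by 4.22 ± 0.39 in OS and 3.24 ± 0.20 in ULA organoids, and PAPPA2 by 3.80 ± 0.50 and 4.39 ± 0.46, all higher in COL-positive cells, while INSR was -1.58 ± 0.08 and -1.11 ± 0.11.

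For each member, the 3 genes with the highest correlation of log2(CPM + 1) across the 14 OS libraries were taken from the genes with a mean of at least 10 CPM. IGFBP3 was followed by PARVA (Pearson r = 0.98), COL5A2 (0.97) and THBS1 (0.95), and IGFBP4 by HAS2 (0.97), LUM (0.93) and ACOT7 (0.92). IGFBP7 was followed by NCS1 (0.98), PIK3IP1 (0.98) and VIM (0.98), and IGFBP6 by VIM (0.94), MDFI (0.94) and VKORC1 (0.93). IGFBP5 was followed by SCUBE3 (0.98), POLE3 (0.96) and IL11RA (0.96), and IGFBP2 by PPP1R14B (0.97), TMEM159 (0.96) and AC022075.1 (0.95). IGF1 was followed by CPXM1 (0.96), GLIPR1 (0.96) and CD248 (0.96), IGF2 by CAPN6 (0.96), ISL1 (0.92) and PRTG (0.92), and IGF1R by LAMB1 (0.97), TNS3 (0.97) and KIRREL1 (0.96). IGFBP1 was followed by FRZB (0.90), SEMA3A (0.86) and CIR1 (0.85). These values describe libraries that share treatments, experiments and cell class shares, and they carry no test.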

How the data were processed

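RNA of single cells was measured by droplet sequencing (10x 3′ version 3) in 19 libraries of 9 groups, taken from the sample titles. The deposited matrices hold raw UMI counts per gene and barcode, with no normalization by the authors, per the file headers and values. The submitters' processing notes name bcl2fastq, Cell Ranger 3.0.2, Scanpy and GRCh38, and the headers give versions 3.0.2 and, for the OA experiment and untreated libraries, 6.0.2. Cells needed 500 genes or more and no more than 20% mitochondrial counts, doublets were not called, and counts were summed per library and class, leaving out sums of fewer than 50 cells. Libraries shared at most 0.581% of barcodes with another.

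Sums were tested with edgeR 4.0.16 (R 4.3.3): TMM scaling, filterByExpr, quasi-likelihood test, Benjamini-Hochberg adjustment over all genes tested, calls at an adjusted p under 0.05. The 14 OS libraries shared 1 fit, and the 5 ULA libraries another. The SE is the log2 fold change divided by the square root of F. DESeq2 1.42.0 was an alternative. The fits were checked on simulated counts. Genes named were all 10 members, called genes of the pathway list with the largest changes first, and the 3 genes most correlated with each member. The members and lists were chosen with earlier results of these data known. The dominant gate, the crossed numbers and the AFP split were chosen after seeing the data. Intervals for single shares are not given, since libraries were the unit. H19 is not listed in every OS matrix and was tested in ULA organoids only. Positions are from GENCODE v44.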

Additional observations from a re-analysis of the deposited data

Results flagged for a closer look

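Some members responded differently in the 2 cell classes, by a test of the difference of log2 fold changes, COL-positive minus EPCAM-positive cells. After TGFB1 this held for IGF2 (2.96), IGFBP5 (2.62), IGFBP7 (-2.65), IGFBP4 (-1.98), IGFBP3 (-0.97) and IGFBP2 (-0.87). After OA it held for IGFBP7 (1.63), IGFBP3 (-1.57) and IGFBP2 (-1.40), where the COL-positive class of the OA group was 1 library of 60 cells.

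Between day 21 and day 34 in ULA organoids the difference was 1.79 for IGF1, 0.93 for IGFBP2, -2.44 for IGF2, -4.40 for IGFBP3, -1.71 for IGFBP7, -0.69 for IGFBP5 and -7.56 for IGFBP1. The EPCAM-positive class of day 34 was 1 library. The IGFBP1 value rests on 0 COL-positive UMIs in day 34 replicate 2, whereas replicate 1, which has no EPCAM-positive sum, had 42 and lay above day 21, so its fitted size depends on the prior count and is no bound.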

How the results depend on the processing

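Of 82 member calls, 42 were kept under every alternative run, and of 101 calls of other pathway genes 51 were. Among the members 3 values reversed, given here with the 4 pathway values that did. In the ULA class contrast the dominant gate gave 0.072 for IGF2, 0.207 for IGFBP6 and 0.058 for H19, and leaving out each library in turn gave -0.32 to 1.01 for IGF2 and -0.38 to 0.495 for H19, the highest without day 34 replicate 2. STC2 in ULA EPCAM-positive cells became 0.445 with the dominant gate, and PIK3R1 in the OS class contrast 0.029 with total-count scaling. The number of members called changed by over 1.5 times as follows. For TGFB1 in COL-positive cells, where 0 were called, DESeq2 gave 2, no filter 4 and the dominant gate 1. For OA control against untreated, no filter gave 1 in place of 0. For ULA all cells, 4 became 7 with total-count scaling, 8 with DESeq2, 8 with no filter, 0 with the replicate block and 2 without cells of both gates. For ULA COL-positive cells, 3 became 5 with total-count scaling, 7 with no filter and 1 with the block, and for the ULA difference of effects 7 became 4 with the stricter cell filter (1000 genes, 10% mitochondrial counts). Leaving out each library in turn gave 4 to 7 for TGFB1 all cells, 4 to 7 for OA all cells, 4 to 7 for OA EPCAM-positive, 0 to 4 for TGFB1 COL-positive, 0 to 3 for OA COL-positive, 3 to 5 for the OA difference, 0 to 9 for ULA all cells and 1 to 6 for ULA COL-positive cells.

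Same-numbered libraries are not paired by the labels. The correlation of their deviations was -0.37 (TGFB1), 0.15 (PA), 0.06 (OA), -0.59 (OA control and untreated), and -0.23 and -0.35 (ULA). The replicate block gave 6 members for TGFB1 all cells, 8 for OA all cells, 7 for each of the TGFB1 and OA EPCAM-positive comparisons and 3 for OA COL-positive cells, and 0 for PA, OA control against untreated and TGFB1 COL-positive cells. It gave no value for ULA EPCAM-positive cells, and the stricter cell filter none for OA COL-positive cells or the OA difference. With the numbers crossed, chosen after seeing the data, 6 members and 4155 genes were called for TGFB1, and 0 members and 6 genes for OA control against untreated.

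Numbers of genes called over all genes moved as well, from 4295 to 1704 at the lowest for TGFB1 all cells, from 4373 to 1888 in EPCAM-positive cells, from 8378 to 5171 for OA all cells, from 6303 to 3259 in EPCAM-positive cells, and from 1193 to 619 for the TGFB1 difference. They ran from 231 to 2456 around 531 for OA COL-positive cells, from 0 to 1125 around 3 for TGFB1 COL-positive cells, from 1025 to 3090 around 1581 for the OA difference, from 2 to 7166 around 3476 for ULA all cells, from 760 to 4759 around 3086 for ULA COL-positive cells, from 0 to 162 around 9 for PA and from 0 to 702 around 111 for OA control against untreated. They fell to 1749 from 3086 for ULA EPCAM-positive cells and to 2292 from 4081 for the ULA difference. For PA they ran from 0 to 126 around 18 in EPCAM-positive cells, from 1 to 81 in COL-positive cells, where 0 were called, and from 0 to 80 around 2 for the difference. Total-count scaling moved the median log2 fold change of all genes from -0.05 to -0.24 for TGFB1 and from -0.08 to -0.42 for OA, and the share of called genes that were higher from 48.99% to 31.6% and from 50.1% to 30.6%. For the OA difference that share went from 21.3% to 71.1%. The cause was not tested. IGFBP1 and, in EPCAM-positive cells, IGF1 are limited by few UMIs.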

Other observations

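EPCAM-positive cells of the OS libraries were split by whether they held a UMI of AFP, the fetal serum protein of hepatocytes, a split chosen after the levels had been seen. IGFBP7 was lower in the cells with AFP in 14 of 14 libraries, with medians of 66.3 CPM with AFP and 140 CPM without. IGFBP3 was lower in 13 of 14 (10.8 and 18.0 CPM), IGF1R in 13 of 14 (29.7 and 33.6 CPM) and IGFBP2 in 12 of 14 (1102 and 1189 CPM). IGF2 was lower in 10 of 14 (89.8 and 132 CPM), and IGFBP1 was higher in 7 and lower in 7. IGFBP6 was higher with AFP in 9 of 14 (10.7 and 10.3 CPM) and IGFBP5 in 8 of 14, though its median was lower (208 and 255 CPM). IGFBP4 was lower in 9 of 14, with the higher median in cells with AFP (6.25 and 5.08 CPM), and IGF1 was lower in 8 and higher in 5 (0.298 and 0.419 CPM). The hepatocyte genes APOA1, TTR and FGB were higher in the cells with AFP in 14 of 14 libraries, COL1A1 was lower in 13 and MKI67 in 11. Cells with AFP were deeper, with a median of 6929 UMIs against 4581 over these libraries, and the part of depth was not tested.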
